A study of Mus musculus with 6 samples.

Results

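The sarcomere is bordered by Z-discs and crossed at its centre by the M-band, and 37 genes that build or regulate these structures were described in fetal mouse heart. They were chosen by name as genes of the Z-disc, the M-band, the titin filament and the control of thin filament length, without the myosins, troponins, tropomyosins or actins themselves. All 37 were among the 31529 genes of the deposited table. As background, titin runs from the Z-disc to the M-band as a molecular spring, alpha-actinin cross-links thin filaments at the Z-disc, and the myomesin family holds the thick filaments in register at the M-band. Around this frame sit LIM and PDZ domain adaptors, proteins that set the length of the actin filaments, and chaperones that fold and place myosin. Cardiomyocytes already beat in the embryo, and their myofibrils go on gaining mass and alignment up to birth.

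Hearts of wild-type ICR mice, which are outbred, were collected 16.5 (E16.5) or 18.5 (E18.5) days into gestation, and their polyadenylated RNA was sequenced in 3 biological replicates per age. The labels name no other allele and no treatment in either group, and the series concerned the metabolism of fetal organs. The sources used here do not say whether a library holds 1 heart or several, from which litter or of which sex. The 6 libraries held 61443414 to 77237333 estimated counts, of which genes of the mitochondrial chromosome took 19.9% to 41.4%. E16.5 replicate 2 had the smallest mitochondrial share and stood apart from the other E16.5 libraries in many genes. The defining genes of heart muscle were abundant in every library, with Myl2, the ventricular myosin light chain, highest per length of 13 filament genes examined in each. Replicate values below are given in the order of replicates 1, 2 and 3.

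Levels are given on 2 scales. FPKM, fragments per unit of transcript length and of library size, takes out transcript length and so lets genes be compared within a library, but it falls where mitochondrial RNA takes up more of the library. CPM, counts scaled to a common library size by TMM (a scaling that equalises the bulk of genes between libraries), was used to compare stages. Log2 changes are E18.5 minus E16.5 on the CPM scale, from the edgeR quasi-likelihood test, and a gene was called when its p-value, adjusted by the Benjamini-Hochberg method over all 19959 genes tested, was below 0.05. In bulk tissue, fewer cells of a type and less RNA per cell cannot be told apart.

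In FPKM, the 37 genes spanned more than 3 orders of magnitude within the same hearts. The cardiac myosin-binding protein Mybpc3, which sits on the thick filament on either side of the M-band, stood first at 434, 519.5 and 501 FPKM in the E16.5 hearts and 487, 525 and 473 FPKM in the E18.5 hearts. The next in order of the mean over 6 libraries were the LIM protein Csrp3 (234 FPKM), alpha-actinin Actn2 (185 FPKM), the ankyrin repeat protein Ankrd1 (171 FPKM) and the PDZ-LIM protein Ldb3 (104 FPKM), all partners of the Z-disc or of titin. These 5 were the genes above a mean of 100 FPKM, and Mybpc3 exceeded the other 4 in every library. Ttn itself, whose transcript is by far the longest of the set, took 26.6% to 30.2% of the counts of all 37 genes in each library, yet per length it ranked 15th at a mean of 28.9 FPKM. At the other end, 4 genes had a mean below 1 FPKM, namely Xirp2, Neb, Myom3 and Myot. Nebulin (Neb), M-band protein Myom3 and myotilin (Myot) are best known from skeletal muscle.

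**Figure D1:**
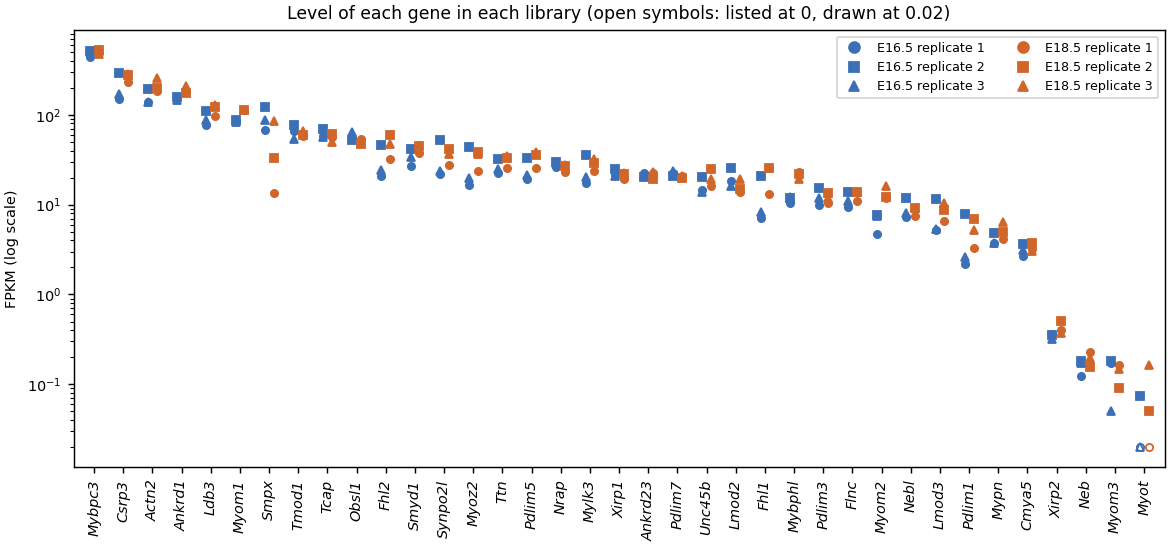
FPKM (log scale) of each of the 37 genes in each of the 6 libraries, ordered by the mean over all libraries, with E16.5 in blue, E18.5 in orange and open symbols for a value listed at 0. Mybpc3 is highest at 434 to 525 FPKM, and Xirp2, Neb, Myom3 and Myot lie below 1 FPKM.

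Myot was counted 0, 12 and 0 times in the E16.5 hearts and 0, 8 and 24 times in the E18.5 hearts, and was the 1 member that did not pass the filter on low counts. A count of 0 allows up to 3 counts, which is 0.0478 CPM in E16.5 replicate 1, counting error only. Neb was at 0.123, 0.182 and 0.173 FPKM in the E16.5 hearts and 0.231, 0.154 and 0.196 FPKM in the E18.5 hearts, with no order between the stages. Its cardiac relative nebulette (Nebl), which lines the thin filament near the Z-disc, was at 7.19, 11.8 and 8.05 FPKM in the E16.5 hearts and 7.56, 9.24 and 9.20 FPKM in the E18.5 hearts, many times higher per length in every library. Markers of skeletal muscle were examined beside these genes: of 18 listed, 16 were analysed here and 12 passed the filter. The determination factor Myf5, the satellite cell gene Pax7 and the fast troponin Tnnc2 did not pass it, and the myogenic factor Myog was at a mean of 0.495 FPKM. The summed level of the list was 76.8 to 89.996 CPM in the E16.5 hearts and 103 to 132 CPM in the E18.5 hearts. The calcium-binding protein Casq1 was highest per length of the list. Casq1 (log2 change 0.77) and the light chain Myl1 (0.92) were the list's genes at an unadjusted p under 0.05 (16.7%, beside 9.53% of all genes). Of the 12 tested, 5 log2 changes were positive and 7 negative, with a median of -0.19. Without Casq1 and Myl1 the summed level was 27.2 to 37.7 CPM in the E16.5 hearts and 19.6 to 37.7 CPM in the E18.5 hearts. Casq1 and Myl1 were left out for having the smallest p of the list. The overlap of the rest follows at least in part from that choice and was not a test. The part of these markers in the levels of Neb, Myom3 and Myot was not tested.

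The sequence just before the start of these genes was examined for motifs of muscle regulators, which the choice of genes did not use. RefSeq start sites on GRCm38.p6 were at hand for 31 of the 37 genes, and the 250 bases before each start were searched on both strands. The MEF2 motif, an element read by the MEF2 factors of striated muscle, lay before 7 of 31 members (22.6%) and before 3.42% of all 27025 genes with a start site. The CArG motif, read by serum response factor, lay before 5 members (16.1%) and 1.62% of all genes. For the element of TEAD factors, searched as CATTCC, the shares were 25.8% and 14.4%. For the motif of GATA-binding factors, searched as AGATAA, they were 29.0% and 11.4%. A gene was counted if the window of any of its start sites held a match, with 43 windows for the 31 members. The 7 members with a MEF2 match were Fhl2, Mybpc3, Myom3, Myoz2, Synpo2l, Ttn and Xirp2, of which Myom3 and Xirp2 had means below 1 FPKM. The 4 motifs do not exclude one another, and a match describes letters, not binding. Fhl2 held both a MEF2 and a CArG match before its start sites. The windows below carry such matches in the member of highest level (Mybpc3), in titin, in the M-band gene Myom1, and in the LIM-only genes Fhl1 and Fhl2, which are taken up again below. Sequences are from RefSeq on GRCm38.p6, 5′ to 3′ on the strand of the gene, touch no annotated exon, and show the motif in capitals.
Mybpc3 MEF2 (chr2:91118009-91118108, + strand): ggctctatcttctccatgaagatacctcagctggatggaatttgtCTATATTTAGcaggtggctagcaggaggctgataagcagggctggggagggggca
Ttn MEF2 (chr2:76982659-76982758, - strand): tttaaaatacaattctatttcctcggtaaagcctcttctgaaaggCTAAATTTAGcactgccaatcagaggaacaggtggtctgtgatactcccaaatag
Myom1 CArG (chr17:71019413-71019512, + strand): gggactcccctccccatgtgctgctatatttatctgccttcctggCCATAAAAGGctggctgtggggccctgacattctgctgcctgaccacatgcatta
Fhl1 CArG (chrX:56779536-56779635, + strand): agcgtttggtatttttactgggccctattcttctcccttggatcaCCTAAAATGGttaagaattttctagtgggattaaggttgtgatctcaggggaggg
Fhl2 CArG (chr1:43163962-43164037, - strand): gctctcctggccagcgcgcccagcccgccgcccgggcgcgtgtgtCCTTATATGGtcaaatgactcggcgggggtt
The matches begin 90 bases before the start in Mybpc3, 166 in Ttn, 99 in Myom1, 102 in Fhl1 and 31 in Fhl2. In Myom1, Fhl1 and Fhl2 that RefSeq start lies inside the gene as GENCODE spans it, downstream of the outermost start, and which start these hearts used was not tested.

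Between E16.5 and E18.5, no gene of the set passed the threshold over all genes, and the largest differences were in Smpx, Myom2, Fhl1 and Mybphl. Of the 36 tested genes, edgeR called 0, beside 0.15% of all tested genes (30 of 19959, with 0.0952% higher and 0.0551% lower at E18.5). With an unadjusted p under 0.05, 5 were higher at E18.5, beside 4.83% of all genes, and 2 were lower, beside 4.7%. Together these 7 make 19.4% of the tested members, where 9.53% of all genes reached that p in either direction. DESeq2 called 2 members, Myom2 and Mybphl, beside 1.58% of all genes. The levels of the stages did not overlap in 7 members that were higher at E18.5 (19.4%, beside 8.45% of all genes) and in 3 that were lower (8.33%, beside 8.02%), 27.8% in all beside 16.5%. In all, 22 log2 changes were positive and 14 negative, with a median of 0.16 against -0.0019 over all tested genes. The median moved with single libraries, being 0.083 without E16.5 replicate 3 and 0.084 without E18.5 replicate 3.

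**Figure D2:**
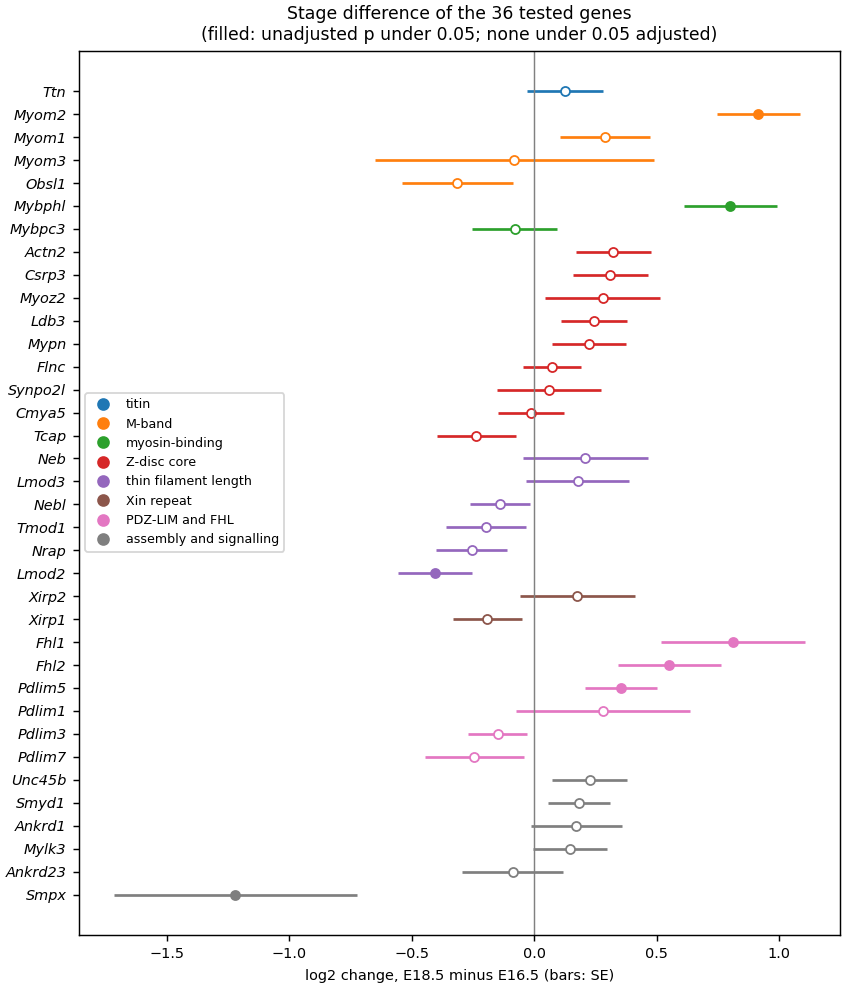
Log2 change from E16.5 to E18.5 of the 36 tested genes, grouped by role, with the standard error as bars. Filled points are the 7 genes at an unadjusted p under 0.05, Myom2, Mybphl, Fhl1, Fhl2 and Pdlim5 on the positive side and Lmod2 and Smpx on the negative side.

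Titin showed little difference between the stages. Ttn was at 3609.9, 3353 and 3499.9 CPM in the E16.5 hearts and 3507, 3860.0 and 4063 CPM in the E18.5 hearts. E18.5 replicates 2 and 3 were above every E16.5 library, while E18.5 replicate 1 lay among them. The log2 change was 0.13 ± 0.16 (SE) with an adjusted p of 0.81.

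At the M-band, the 3 myomesin genes differed widely in level, and none was called by edgeR. Myom2, which encodes M-protein, a cross-linker of thick filaments (ENSMUSG00000031461, GRCm38 chromosome 8, 15057653 to 15133541), was at 56.3, 60.8 and 78.9 CPM in the E16.5 hearts and 121, 109 and 139.5 CPM in the E18.5 hearts. All E18.5 libraries were above all E16.5 libraries. The log2 change was 0.92 ± 0.17 (SE), a 1.89-fold difference, with an unadjusted p of 5.67e-04 and an adjusted p of 0.149, the lowest of the set. DESeq2 gave an adjusted p of 4.79e-04, and edgeR with the mitochondrial share of each library as a term gave 0.0445, where 0.922% of all genes were called. Over all alternatives its adjusted p ran from 4.79e-04 to 0.572. Myom1, the main myomesin of the set, was at 1223, 826 and 1025 CPM in the E16.5 hearts and 1398, 1184 and 1174 CPM in the E18.5 hearts, with overlapping stages and a log2 change of 0.29 ± 0.18 (SE) (adjusted p = 0.646). E16.5 replicate 2 was its lowest library. Myom3, with 25 to 90 counts per library, was at 1.44, 0.986 and 0.364 CPM in the E16.5 hearts and 1.19, 0.554 and 0.893 CPM in the E18.5 hearts, and its log2 change of -0.080 took the opposite sign without E16.5 replicate 1, without E18.5 replicate 2 and with the replicate number as a term. Obsl1, an obscurin relative that ties titin to myomesin, had means of 57.0 ± 6.75 FPKM in the E16.5 hearts and 50.1 ± 3.91 FPKM in the E18.5 hearts (SD, n = 3) and a log2 change of -0.31 ± 0.23 (SE).

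Of the myosin-binding proteins, neither was called by edgeR, and the less abundant one had the larger log2 change. Mybphl, a relative of myosin-binding protein H found in atrium and conduction system (ENSMUSG00000068745, GRCm38 chromosome 3, 108364911 to 108380057), was at 18.1, 13.5 and 18.5 CPM in the E16.5 hearts and 34.9, 28.2 and 24.1 CPM in the E18.5 hearts. The stages did not overlap, and E18.5 replicate 1 was the highest library. The log2 change was 0.80 ± 0.19 (SE), 1.74-fold, with an unadjusted p of 0.00268 and an adjusted p of 0.225. Its adjusted p was 0.0217 by DESeq2 and 0.0247 with the mitochondrial share as a term, and it ran from 0.0217 to 0.649 over all alternatives. Mybpc3 was at 2454, 1927 and 2484 CPM in the E16.5 hearts and 2372, 2189 and 1936 CPM in the E18.5 hearts, with overlapping stages and a log2 change of -0.079 ± 0.17 (SE), whose sign turned to 0.032 on log2(FPKM + 1) values. Markers of atrium were examined beside Mybphl. Of these, 4 reached an unadjusted p under 0.05 (50%, beside 9.53% of all genes). Of the 8 markers, 7 had a positive log2 change (87.5%, beside 49.8% of all genes), and none was at 0. Their summed level was 1889.5 to 2863 CPM in the E16.5 hearts and 3726 to 4322 CPM in the E18.5 hearts. The natriuretic peptide gene Nppa (log2 change 1.10, adjusted p = 0.147) was highest per length over all 6 libraries and at E18.5, while the light chain Myl7 matched it at E16.5 (means of 1044 and 1055 FPKM). The part of the atrial share of the tissue in the Mybphl difference was not tested. Gm12522, on the opposite strand of Mybphl, had a count of its own 10.5% the size of that of Mybphl. The counts of genes on the opposite strand were likewise 19.0% the size of that of Tmod1, 15.7% for Smyd1, 11.2% for Neb and 9.09% for Myom1. The ventricular markers had 3 positive and 3 negative log2 changes among 6.

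In the Z-disc core, log2 changes were small. Of 9 tested genes of this group, 7 had a positive log2 change, 0 reached an unadjusted p under 0.05, and the changes ran from -0.24 to 0.32. Actn2, alpha-actinin of the Z-disc, was at 722, 662 and 626 CPM in the E16.5 hearts and 814, 755 and 949 CPM in the E18.5 hearts, so the stages did not overlap (log2 change 0.32 ± 0.15 (SE), adjusted p = 0.547). Csrp3, the muscle LIM protein, was at 546, 689 and 545 CPM in the E16.5 hearts and 721, 735 and 753 CPM in the E18.5 hearts. E16.5 replicate 2 was closest to the E18.5 libraries, which spread little, and the log2 change was 0.31 ± 0.15 (SE) (adjusted p = 0.555). Ldb3, which holds alpha-actinin through its PDZ domain, was at 644, 597 and 631 CPM in the E16.5 hearts and 700.1, 743 and 773 CPM in the E18.5 hearts, again without overlap (log2 change 0.24 ± 0.14 (SE), adjusted p = 0.598). Among the rest, Mypn, which binds nebulin family proteins and alpha-actinin, was at 29.5, 25.2 and 25.7 CPM in the E16.5 hearts and 27.9, 29.2 and 36.8 CPM in the E18.5 hearts. Tcap, which caps the Z-disc end of titin, had means of 61.4 ± 7.06 FPKM in the E16.5 hearts and 56.0 ± 5.83 FPKM in the E18.5 hearts (SD, n = 3), with a log2 change of -0.24. Myoz2, a calcineurin-binding protein, averaged 26.6 ± 14.7 FPKM in the E16.5 hearts and 33.2 ± 8.24 FPKM in the E18.5 hearts, with a log2 change of 0.28 that was 0.12 without E16.5 replicate 1 and 0.58 without E16.5 replicate 2. Flnc, the muscle filamin, averaged 11.4 ± 2.20 FPKM in the E16.5 hearts and 12.8 ± 1.51 FPKM in the E18.5 hearts, with a log2 change of 0.073 and the smallest within-stage spread of the set in CPM. Synpo2l, an actin-bundling partner of alpha-actinin, averaged 32.7 ± 16.9 FPKM in the E16.5 hearts and 35.1 ± 7.24 FPKM in the E18.5 hearts, and the costameric Cmya5 averaged 3.13 ± 0.477 FPKM in the E16.5 hearts and 3.32 ± 0.358 FPKM in the E18.5 hearts. Their log2 changes of 0.061 and -0.014 took the opposite sign under at least 1 alternative each.

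**Figure D3:**
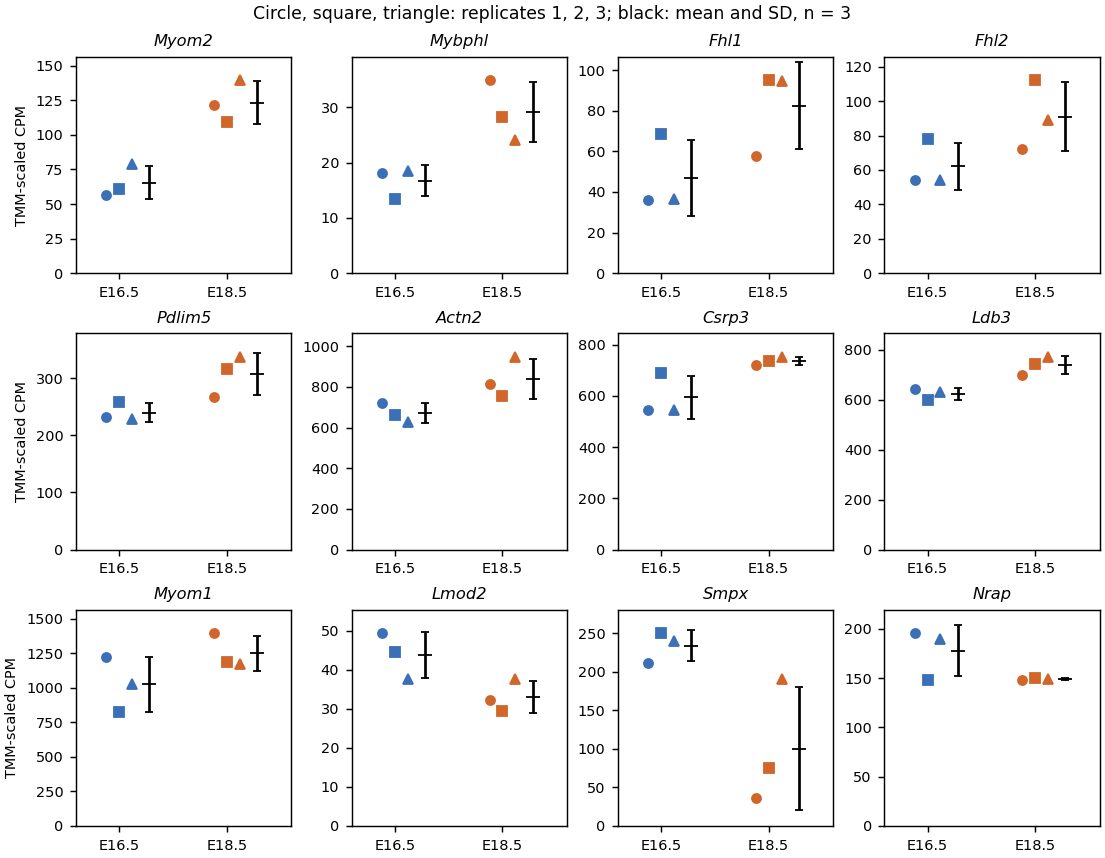
TMM-scaled CPM of 12 genes in each library, one panel per gene with the axis starting at 0, E16.5 in blue and E18.5 in orange. Black marks give the mean and SD of 3 libraries. Myom2, Mybphl, Pdlim5, Actn2, Csrp3 and Ldb3 show no overlap with E18.5 above, and Lmod2 and Smpx none with E18.5 below.

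Among 6 genes grouped here under thin filament length, the scaffold gene Nrap included, 4 log2 changes were negative and 2 positive, and none was called. Lmod2, the cardiac leiomodin that lengthens actin filaments at their pointed ends (ENSMUSG00000029683, GRCm38 chromosome 6, 24597762 to 24605414), was at 49.4, 44.6 and 37.7 CPM in the E16.5 hearts and 32.4, 29.5 and 37.6 CPM in the E18.5 hearts. The lowest E16.5 library and the highest E18.5 library, both replicate 3, were nearly level. The log2 change was -0.41 ± 0.15 (SE) with an unadjusted p of 0.0271 and an adjusted p of 0.45. Its relative Lmod3 was at 15.5, 22.6 and 14.0 CPM in the E16.5 hearts and 17.0, 19.2 and 22.7 CPM in the E18.5 hearts, with E16.5 replicate 2 above 2 of the E18.5 libraries and a log2 change of 0.18 ± 0.21 (SE). Without E16.5 replicate 3 it was 0.037, and without E16.5 replicate 2 it was 0.42. Tmod1, which caps the same pointed ends, had means of 65.5 ± 12.3 FPKM in the E16.5 hearts and 61.4 ± 3.60 FPKM in the E18.5 hearts (SD, n = 3) and a log2 change of -0.20. Nebl was at 149, 161 and 146 CPM in the E16.5 hearts and 135, 141 and 138 CPM in the E18.5 hearts, where the stages did not overlap although the log2 change was only -0.14 ± 0.12 (SE). Nrap, an actin-binding scaffold of assembling myofibrils, was at 196, 148 and 189.6 CPM in the E16.5 hearts and 148, 150.0 and 149 CPM in the E18.5 hearts. The 3 E18.5 libraries and E16.5 replicate 2 lay within a few CPM of each other, and the log2 change was -0.26 ± 0.15 (SE) (adjusted p = 0.612). Neb had a log2 change of 0.21 ± 0.26 (SE), which was -0.042 without E18.5 replicate 1. Of the Xin repeat proteins, which bind actin at the intercalated disc, Xirp1 was at 181, 138 and 154 CPM in the E16.5 hearts and 142, 136 and 136 CPM in the E18.5 hearts and had a log2 change of -0.19. Xirp2 was at 7.03, 4.53 and 5.52 CPM in the E16.5 hearts and 6.74, 7.26 and 5.30 CPM in the E18.5 hearts, with a log2 change of 0.18 and overlapping stages.

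Among the PDZ-LIM and LIM-only adaptors, 4 of 6 log2 changes were positive and 2 negative. An unadjusted p under 0.05 was reached by 3, each positive, beside 4.83% of all tested genes that were higher at that p. Fhl2 is among these 3, and its value is uncertain for the reason given below. Fhl1, a LIM-only protein linked to titin (ENSMUSG00000023092, GRCm38 chromosome X, 56731787 to 56793346), was at 35.8, 68.7 and 36.4 CPM in the E16.5 hearts and 57.7, 95.0 and 94.6 CPM in the E18.5 hearts. E16.5 replicate 2 exceeded E18.5 replicate 1, so the stages overlapped, and the log2 change was 0.81 ± 0.29 (SE) with an adjusted p of 0.436. Without E16.5 replicate 2 it was 1.19 with an adjusted p of 0.0473, in a fit that called 1.78% of all genes. Over all alternatives its adjusted p ran from 0.0473 to 0.927. Fhl2, a second LIM-only adaptor at the Z-disc (ENSMUSG00000008136, GRCm38 chromosome 1, 43123074 to 43196984), was at 54.0, 78.0 and 54.4 CPM in the E16.5 hearts and 72.1, 112 and 88.9 CPM in the E18.5 hearts, with the same overlap and a log2 change of 0.55 ± 0.21 (SE) (adjusted p = 0.456). On the other strand of Fhl2 lies Gm8210, whose own count was 152.5% the size of that of Fhl2, and the sources do not say if strand was used in counting. The value of Fhl2 is therefore uncertain. The sum of Fhl2 and Gm8210 had a log2 change of 0.11 (adjusted p = 0.865), but Gm8210 makes up the larger part of that sum, which does not show the change of Fhl2 itself. Pdlim5, which brings protein kinase C to the Z-disc (ENSMUSG00000028273, GRCm38 chromosome 3, 142239590 to 142395696), was at 232, 259 and 228 CPM in the E16.5 hearts and 266, 316 and 337 CPM in the E18.5 hearts. Every E18.5 library was above every E16.5 library, by little for E18.5 replicate 1 (log2 change 0.36 ± 0.15 (SE), adjusted p = 0.496). Pdlim3, an actinin-associated LIM protein, was at 68.6, 70.3 and 73.2 CPM in the E16.5 hearts and 62.6, 69.1 and 59.7 CPM in the E18.5 hearts, with a log2 change of -0.15. Pdlim1 and Pdlim7, PDZ-LIM relatives of the actin cytoskeleton, had log2 changes of 0.28 and -0.24. Leaving out 1 library moved Pdlim1 from 0.039 (without E18.5 replicate 2) to 0.81 (without E16.5 replicate 2). It moved Pdlim7 from -0.10 (without E16.5 replicate 1) to -0.43 (without E16.5 replicate 2). Pdlim7 averaged 22.2 ± 1.43 FPKM in the E16.5 hearts and 20.5 ± 0.553 FPKM in the E18.5 hearts, and Pdlim1 averaged 4.197 ± 3.16 FPKM in the E16.5 hearts and 5.11 ± 1.82 FPKM in the E18.5 hearts. Pdlim1 more than doubled between libraries of the same stage, from 15.5 to 36.8 CPM at E16.5.

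Of the genes for myofibril assembly and signalling, only Smpx reached an unadjusted p under 0.05. Smpx, which encodes a small muscle protein from the X chromosome (ENSMUSG00000041476, GRCm38 chromosome X, 157698910 to 157752591), was at 211, 250.3 and 239 CPM in the E16.5 hearts and 35.97, 74.9 and 190.2 CPM in the E18.5 hearts. The E16.5 libraries were close together, while the E18.5 libraries spread more than 5-fold, with replicate 3 only a little below E16.5. The log2 change was -1.22 ± 0.50 (SE), 2.33-fold lower at E18.5, with an unadjusted p of 0.0385 and an adjusted p of 0.489. Without E18.5 replicate 3 it was -2.07 (adjusted p = 0.22), and without E18.5 replicate 1 it was -0.83. Xist, the RNA of the inactive X chromosome, was at 14.6, 965 and 1353 CPM in the E16.5 hearts and 9.74, 9.13 and 1189 CPM in the E18.5 hearts. Xist was thus low in E16.5 replicate 1 and in E18.5 replicates 1 and 2, which is not balanced between the stages. Within each stage, the libraries with low Xist had the lowest Smpx. E16.5 replicate 1, with low Xist, was above every E18.5 library in Smpx. The part of sex in the Smpx difference, or in that of Fhl1, also on the X chromosome, was not tested. Ankrd1, a titin-binding ankyrin repeat protein, was at 614, 402 and 501 CPM in the E16.5 hearts and 606, 511 and 592 CPM in the E18.5 hearts, with overlap and a log2 change of 0.17 ± 0.18 (SE), which was 0.033 without E16.5 replicate 2 and 0.33 without E16.5 replicate 1. Ankrd23, its relative, was at 81.7, 48.2 and 67.3 CPM in the E16.5 hearts and 71.1, 52.5 and 62.0 CPM in the E18.5 hearts. It shares exon sequence with the overlapping gene Gm42417, whose own count was 15.4% the size of that of Ankrd23, and their sum had a log2 change of 0.14 against -0.088 for Ankrd23 alone. The myosin chaperone Unc45b averaged 16.1 ± 3.55 FPKM in the E16.5 hearts and 20.2 ± 4.43 FPKM in the E18.5 hearts, with a log2 change of 0.23. The cardiac myosin light chain kinase Mylk3 averaged 24.5 ± 9.61 FPKM in the E16.5 hearts and 28.3 ± 4.34 FPKM in the E18.5 hearts, with a log2 change of 0.15. Smyd1, a muscle methyltransferase needed for myofibril assembly, was at 164, 169.6 and 186 CPM in the E16.5 hearts and 200.4, 203 and 187 CPM in the E18.5 hearts. Its stages did not overlap, by less than 1 CPM, and its log2 change was 0.18.

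Related genes were set against each other within each library on the FPKM scale. This cancels the scaling by depth and mitochondrial share, but not a level of a single gene that goes with that share. Of the paired genes, Lmod3, Fhl1, Fhl2, Ankrd23, Xirp1 and Mybpc3 were ordered by the mitochondrial share of the libraries, as given below. The part of that share in their ratios was not tested. A total of 9 pairs were compared with a two-sided exact permutation test over 3 against 3 libraries, whose smallest p is 0.1, so none can pass 0.05. The pair of Myot with Mypn gave no ratio because Myot is listed at 0 in 3 libraries. Myom2 was at 5.43%, 8.69% and 9.09% of the level of Myom1 in the E16.5 hearts and 10.3%, 10.9% and 14.0% in the E18.5 hearts. All E18.5 ratios were higher (log2 difference 0.62, exact p = 0.1, adjusted over 9 pairs 0.18), though without E16.5 replicate 1 the difference was 0.39. Mybphl was at 2.41%, 2.28% and 2.43% of Mybpc3 in the E16.5 hearts and 4.80%, 4.21% and 4.06% in the E18.5 hearts, the widest gap relative to the spread (log2 difference 0.87, exact p = 0.1). Lmod3 was at 27.98%, 45.2% and 33.2% of Lmod2 in the E16.5 hearts and 47.0%, 58.2% and 53.9% in the E18.5 hearts, without overlap (log2 difference 0.60, exact p = 0.1). Pdlim3 went the other way, at 51.0%, 46.9% and 55.3% of Pdlim5 in the E16.5 hearts and 40.6%, 37.7% and 30.5% in the E18.5 hearts (log2 difference -0.50, exact p = 0.1). Ankrd23 relative to Ankrd1 was also lower in every E18.5 library (log2 difference -0.26, exact p = 0.1), with the reservation on Gm42417. The ratios of Xirp2 to Xirp1, Neb to Nebl, Fhl2 to Fhl1 and Myom3 to Myom1 overlapped between the stages, with log2 differences of 0.37, 0.31, -0.29 and -0.26 and exact p from 0.2 to 0.6. The difference of Neb to Nebl was 0.081 without E18.5 replicate 1 and 0.52 without E18.5 replicate 2, and that of Fhl2 to Fhl1 was -0.17 without E18.5 replicate 3. Fhl2 was 2.95, 2.22 and 2.93 times the level of Fhl1 in the E16.5 hearts and 2.45, 2.31 and 1.84 times in the E18.5 hearts. These ratios carry the reservation on Gm8210, which leaves the value of Fhl2 uncertain.

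**Figure D4:**
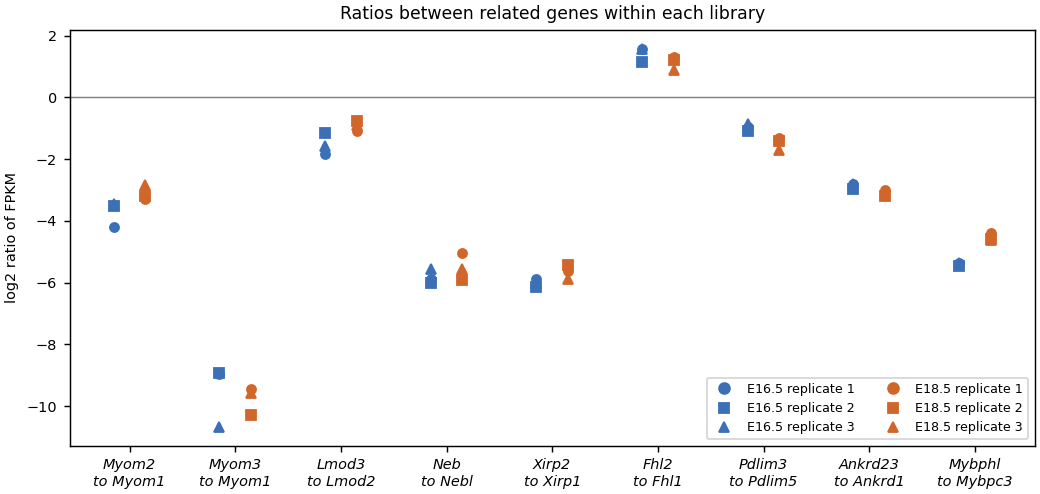
Log2 ratio of FPKM between related genes within each library, E16.5 in blue and E18.5 in orange, symbols by replicate. The ratios of Myom2 to Myom1, Lmod3 to Lmod2 and Mybphl to Mybpc3 are higher in all 3 E18.5 libraries, and those of Pdlim3 to Pdlim5 and Ankrd23 to Ankrd1 are lower.

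The genes also differed in how steady they were among hearts of 1 age. The SD of log2 CPM within a stage, pooled over both stages, had a median of 0.20 over the 36 members and 0.33 over all tested genes, many of which are less abundant. Flnc (0.043), Nebl (0.056), Ldb3 (0.064) and Ttn (0.085) were among the steadiest. Smpx (0.86), Myom3 (0.81), Pdlim1 (0.58) and Fhl1 (0.48) varied most. E16.5 replicate 2 was the lowest of the 6 libraries for 13 members (36.1%, against 18.2% of all tested genes) and the highest for 4. Its 13 lowest were Ttn, Myom1, Obsl1, Mybpc3, Mybphl, Ldb3, Mypn, Nrap, Xirp2, Pdlim7, Flnc, Ankrd1 and Ankrd23, and the 4 highest were Nebl, Pdlim1, Synpo2l and Smpx. Fhl1, Fhl2, Myoz2, Synpo2l, Pdlim1, Lmod3 and Mylk3 were each higher in E16.5 replicate 2, E18.5 replicate 2 and E18.5 replicate 3 than in the other 3 libraries. The mitochondrial share was 19.9%, 26.7% and 25.2% in those 3 libraries and 33.5% to 41.4% in the others. These 7 are 19.4% of the members, and 15.4% of all tested genes showed the same order. The reverse order held for 6 members, Ankrd23, Mybpc3, Obsl1, Pdlim7, Tcap and Xirp1 (16.7%, beside 15.2% of all tested genes). The share of adult globin RNA was also highest in those 3 libraries, at 2.87%, 1.79% and 2.30% against 0.762% to 1.43%, and its part was not tested. With the mitochondrial share as a term, the log2 change went from 0.81 to 0.66 for Fhl1, from 0.55 to 0.45 for Fhl2 and from 0.28 to 0.14 for Pdlim1. It went from 0.28 to 0.16 for Myoz2, from 0.18 to 0.085 for Lmod3, from 0.15 to 0.084 for Mylk3 and from 0.061 to -0.030 for Synpo2l. Among the 6 of reverse order it went from -0.31 to -0.155 for Obsl1, -0.24 to -0.088 for Pdlim7 and -0.24 to -0.17 for Tcap. The others were Xirp1 (-0.19 to -0.13), Mybpc3 (-0.079 to -0.0039) and Ankrd23 (-0.088 to 0.067). Both groups were picked by their order along that share, so such moves follow from the choice and were not a test.

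**Figure D5:**
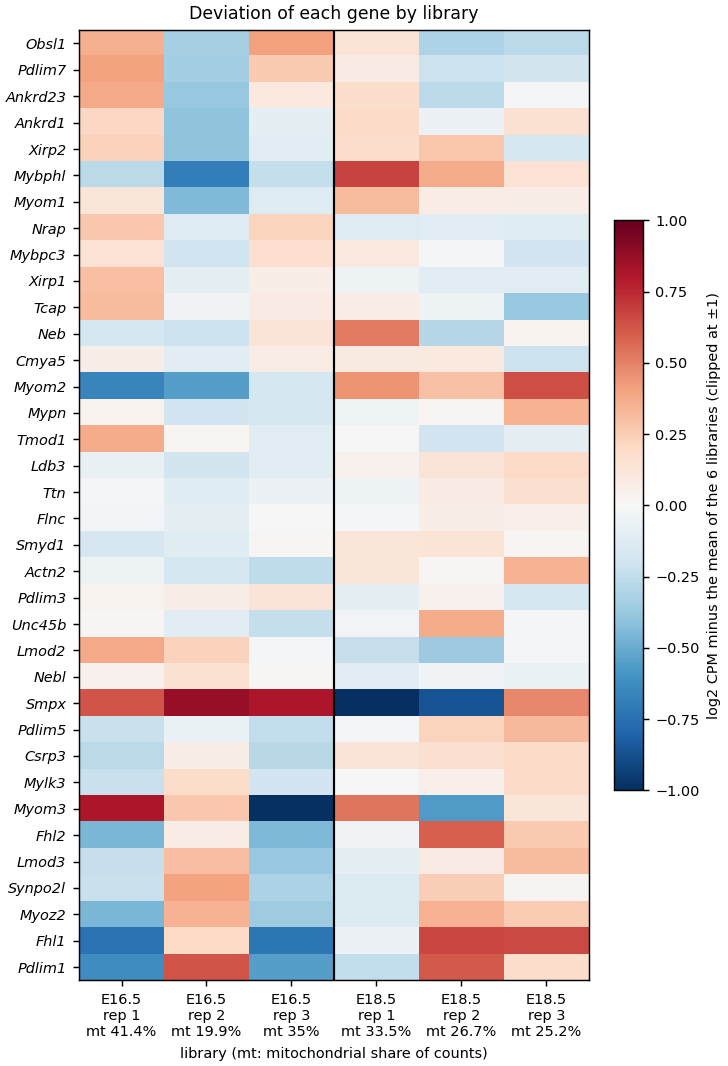
Log2 CPM of each of the 36 tested genes in each library minus its mean over the 6 libraries, in colour, clipped at 1 in either direction, with the mitochondrial share under each library. Genes are ordered by E16.5 replicate 2 against the other E16.5 libraries. Fhl1, Fhl2, Myoz2, Synpo2l and Pdlim1 at the foot are high in the 3 libraries with a mitochondrial share of 19.9% to 26.7%.

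Other genes of the same structures were read from a list. Of 47 tested genes from a list of 48 further Z-disc, M-band and pointed-end genes, edgeR called 0, and 5 (10.6%, beside 9.53% of all genes) reached an unadjusted p under 0.05, of which 3 had a positive sign. The median log2 change was 0.11. DESeq2 called 1 of them. The smallest p-values belonged to the PDZ-LIM gene Pdlim4 (1.45 ± 0.34 (SE), adjusted p = 0.219), the LIM protein Ablim1 (0.44 ± 0.12 (SE), adjusted p = 0.306), the titin-bound protease Capn3 (-0.58) and the pointed-end capper Tmod4 (-0.80). Pdlim4 was at 1.21, 2.56 and 1.79 CPM in the E16.5 hearts and 6.14, 5.47 and 3.64 CPM in the E18.5 hearts, so the stages did not overlap. Of 13 genes of the thick and thin filaments, 12 had a positive log2 change (92.3%, beside 49.8% of all genes) with a median of 0.25. Among the 13, edgeR called 0, and 2 were at an unadjusted p under 0.05 (15.4%, beside 9.53% of all genes). Those with the smallest p were tropomyosin Tpm1 (0.56), troponin C Tnnc1 (0.46), cardiac actin Actc1 (0.70) and troponin I Tnni3 (0.33).

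Cardiomyocyte genes outside the sarcomere were also read. Of 15 such genes, 12 had a positive log2 change with a median of 0.14, and their summed level was 3065 to 3753 CPM in the E16.5 hearts and 3759 to 4238 CPM in the E18.5 hearts. An unadjusted p under 0.05 was reached by 6 of them (40.0%, beside 9.53% of all genes), and edgeR called 0. These were the calcium-handling genes Atp2a2 (0.77), Ryr2 (0.53) and Casq2 (0.48), the fatty acid binding protein Fabp3 (0.67), the splicing factor Rbm20 (0.33) and, with a negative sign, the transcription factor Nkx2-5 (-0.40). Of the list's other calcium-handling genes, Trdn had a log2 change of -0.71, and Pln (0.14), Slc8a1 (0.14) and Hrc (0.12) had small positive ones. The transcription factors Gata4 (-0.090) and Tbx20 (0.0066) had small log2 changes. The list thus did not give 1 common value for the share of heart muscle. The 37 members together took 1.75% to 1.82% of the counts outside mitochondrial genes in the E16.5 hearts and 1.85% to 1.97% at E18.5. Markers of other cell types were read in the same way. Over all tested genes, 49.8% of log2 changes were positive. Among 8 epicardial markers, 7 had a positive log2 change, and the keratin gene Krt19 was called (1.23 ± 0.14 (SE), adjusted p = 0.0219), with a summed level of 161 to 174 CPM in the E16.5 hearts and 213 to 275 CPM in the E18.5 hearts. All 8 fibroblast markers had a positive log2 change, with a median of 0.46 and a summed level of 2261 to 3573 CPM in the E16.5 hearts and 3806 to 4994 CPM in the E18.5 hearts, led in mean FPKM by the collagen gene Col1a1. Of 8 smooth muscle markers, 7 were positive, with a summed level of 892 to 1104 CPM in the E16.5 hearts and 1114 to 1213 CPM in the E18.5 hearts, led per length by the actin gene Acta2, which fetal cardiomyocytes also make. Des, Lmod1 and Synpo2 were also on the list of further Z-disc genes. Des alone averaged 433 CPM in the E16.5 hearts and 399 CPM in the E18.5 hearts (log2 change -0.12), so the sum is not specific to smooth muscle. Myh11 (1.79) and Tagln (1.40) had the largest log2 changes of these markers. None of these markers was at 0 in all libraries, and their part in the member differences was not tested. The endothelial (5 of 8 positive), macrophage (4 of 8), erythroid (3 of 7) and liver (1 of 5) markers had 0 genes called by edgeR. Of the endothelial markers, 1 reached an unadjusted p under 0.05 (12.5%, beside 9.53% of all genes).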

How the data were processed

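The authors deposited 1 table of 31529 genes with an estimated count and an FPKM value per library, per the file headers. The submitters' processing notes name StringTie 1.3.4d, HISAT2 2.0.4, cutadapt 1.9 and UMI-tools, with mm9 as build and no roles. Per the labels' protocols the libraries marked strand and carried unique molecular identifiers, but the sources do not say if counting used either. The deposited estimated counts were whole numbers and needed no rounding. Between libraries, count divided by FPKM was within 1% of the median ratio for 99.7% of 11385 genes with over 200 counts in every library, so both hold 1 quantification. Positions come from GENCODE M21 (GRCm38) through the Ensembl identifiers. Coordinates of the deposited table matched it for 611 of 29874 identifiers and are not printed.

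E18.5 was set against E16.5 in R 4.3.3 with edgeR 4.0.16 (filterByExpr, TMM, glmQLFit and glmQLFTest, stage as the only term). The SE is the log2 change over the root of F, unsigned. Alternatives were DESeq2 1.42.0, RLE scaling, no filter, limma 3.58.1 on log2(FPKM + 1) and log2(FPKM + 0.1) for genes with a mean FPKM of at least 0.5, further terms, and leaving out each library. The edgeR, DESeq2 and limma fits by stage were tested on simulated counts. Those counts held larger changes than any member showed and less spread than these data, and limma was given CPM instead of FPKM. The simulation therefore does not show how well changes of the size seen here would be found. Near-identical copies were searched with BLAST at 95% identity over 200 bases. The common biological coefficient of variation was 34.3%.

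The members, lists, pairs and tests were chosen with earlier results of these data known. Values were shown by library for members with the 12 smallest p, the 6 highest mean FPKM and those in pairs. Other members are given by mean FPKM and log2 change, and other lists by their smallest p. The library values of Ttn, Smyd1, Xist and Pdlim4, the genes named among cardiomyocyte, skeletal and smooth muscle markers, the order of libraries by mitochondrial share and the print of promoter windows were chosen after their values were seen. The design's pair of Myot and Mypn gave no ratio.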

Additional observations from a re-analysis of the deposited data

How the results depend on the processing

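The number of calls moved with the tool and with single libraries. Over all genes edgeR called 30, DESeq2 343, limma 10 on log2(FPKM + 1), 3 without its filter and 16 on log2(FPKM + 0.1), and edgeR with the mitochondrial share as a term 184. Leaving out 1 library gave 8 (without E16.5 replicate 3) to 371 calls (without E16.5 replicate 2). Members called were 2 by DESeq2, 2 with the mitochondrial share as a term (Myom2 and Mybphl both times) and 0 to 1 when 1 library was left out. Members at an unadjusted p under 0.05 numbered 12 with the mitochondrial share, 4, 3 and 4 in the 3 limma fits, and 2 to 16 when 1 library was left out. The 16 came without E16.5 replicate 2, the fit with 371 calls over all genes. In these fits the share of all genes at that unadjusted p was not taken, so these member counts have no background beside them. Of the other Z-disc and M-band genes, DESeq2 called 1 (Pdlim4), the mitochondrial term 1 (Ablim1), and the fits without 1 library 0 to 3. The median log2 change of members was 0.26 and 0.25 in the filtered limma fits, where the median of all genes was also shifted, to 0.12 and 0.083. Without 1 library it was 0.083 to 0.14.

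In 30 of 36 members the log2 change kept its sign under every alternative run for them, which for Xirp2 left out the filtered limma fits. In limma on log2(FPKM + 0.1), log2(FPKM + 1) and the latter without a filter, the changes were 0.032 each time for Mybpc3, 0.086, 0.067 and 0.067 for Cmya5, and 0.041, 0.040 and 0.040 for Ankrd23. With the mitochondrial share they were 0.025 for Cmya5, -0.030 for Synpo2l and 0.067 for Ankrd23. Without 1 library the ranges were -0.47 to 0.36 for Myom3, -0.069 to 0.081 for Cmya5, -0.080 to 0.32 for Synpo2l, -0.27 to 0.090 for Ankrd23 and -0.042 to 0.38 for Neb. The ratio of Myom3 to Myom1 ranged from -0.83 to 0.041. The cause of these shifts was not tested. With the replicate block, 43 genes and 0 members were called and Myom3 was at 0.034. Same-numbered libraries deviated together with r of 0.102, 0.185 and -0.0663, and E16.5 replicate 3 did not correlate best with its own number, so the numbers were not taken as pairs. Counts were lowest for Myot (0 to 24 per library) and Myom3 (25 to 90).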
